A study of Mus musculus with 84 samples.

Results

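A set of 9 genes that set how the liver handles glucose between the fed and the fasted state were followed in all 7 treatment groups. They were picked by symbol, through the Ensembl identifiers of the read and transcripts-per-million (TPM) tables, and make up 9 of the 48794 genes listed. All 9 passed the filter on low values in both tissues, among 15964 genes tested in liver and 18536 in epididymal white adipose tissue (eWAT). Male C57BL/6J mice made obese by a diet with 60% of its energy from fat were dosed subcutaneously once a day for 30 days from an age of 22 weeks, with food freely available. They received vehicle, BI 456906 (a dual agonist of the GLP-1 and glucagon receptors) in doses from 3 through 10 and 20 up to 30 nmol/kg, or semaglutide (an agonist of the GLP-1 receptor alone) at either 20 or 100 nmol/kg. Every group, vehicle included, had the high-fat diet, and no lean or fasted group was among the samples, so the fed and fasted states are background and not conditions of this comparison. Each group had 6 liver and 6 eWAT libraries, 84 in all.

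In hepatocytes, glucose enters through the transporter GLUT2 and is phosphorylated by glucokinase, which a regulatory protein holds inactive in the nucleus at low glucose. Phosphofructokinase and, at the last step, pyruvate kinase then commit the sugar to glycolysis, with the bifunctional PFKFB enzymes making and breaking the allosteric activator fructose 2,6-bisphosphate. Pyruvate dehydrogenase passes pyruvate on to oxidation and fat synthesis unless pyruvate dehydrogenase kinases (PDKs) switch it off, and FOXO1, which insulin keeps out of the nucleus, drives the genes of the fasted liver. The genes were Slc2a2 (GLUT2), Gckr (glucokinase regulatory protein), Pfkl (liver phosphofructokinase), Pfkfb1 and Pfkfb3, Pklr (liver and red cell pyruvate kinase), Pdk1 and Pdk4, and Foxo1.

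Liver libraries held 21676902 to 53869104 reads (median 43179390) and eWAT libraries 37573004 to 53996914 (median 46475069). The shallowest liver libraries were replicate 77 at 20 nmol/kg semaglutide (21676902 reads) and replicate 81 at 100 nmol/kg semaglutide (30040261 reads). Next came replicate 49 at 3 nmol/kg BI 456906, with 39049001 reads. The part of depth in the values of replicates 77 and 81 was not tested. The 10 hepatocyte markers summed to 100355 to 141960 TPM in every liver library, so the markers of the labelled tissue were present throughout. The 8 adipocyte markers summed to 30.0 to 247 TPM in liver, with the vehicle libraries at 70.7 to 247 and the libraries at 30 nmol/kg BI 456906 at 30.0 to 139. Whether these traces of adipose transcripts took part in a liver result was not tested. Levels are given in TPM, which corrects for gene length, and differences as log2 fold changes from limma/voom on the scaled read counts with a Benjamini-Hochberg false discovery rate (FDR) over all genes tested in the tissue. A gene is said to have risen or fallen only at an FDR of at most 0.05. Fewer cells of a type and less RNA per cell cannot be told apart in these bulk samples.

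The start-site regions of the gene that fell furthest, of the PDK gene among the 9 that fell and of the transcription factor that rose are printed to show how unlike they are. Each holds 250 bases before and 50 after a RefSeq start site on GRCm38.p6, read 5′ to 3′ on the plus strand, and capitals mark the carbohydrate response element, the paired E-box-like sequence bound by ChREBP. The regions are chr3:89136373-89136672 for the downstream of the 2 Pklr start sites, chr2:71872974-71873273 for the upstream of the 2 Pdk1 start sites and chr3:52268087-52268386 for Foxo1.
Pklr: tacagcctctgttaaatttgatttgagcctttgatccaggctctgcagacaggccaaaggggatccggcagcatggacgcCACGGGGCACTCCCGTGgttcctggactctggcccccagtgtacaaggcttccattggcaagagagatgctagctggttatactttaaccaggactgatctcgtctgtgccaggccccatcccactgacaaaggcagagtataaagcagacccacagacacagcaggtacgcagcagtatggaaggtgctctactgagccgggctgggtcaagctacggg
Pdk1: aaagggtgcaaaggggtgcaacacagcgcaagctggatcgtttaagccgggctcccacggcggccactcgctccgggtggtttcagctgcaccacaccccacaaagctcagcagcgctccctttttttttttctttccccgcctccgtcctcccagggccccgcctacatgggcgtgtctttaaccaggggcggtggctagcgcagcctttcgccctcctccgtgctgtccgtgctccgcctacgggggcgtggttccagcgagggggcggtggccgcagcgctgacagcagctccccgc
Foxo1: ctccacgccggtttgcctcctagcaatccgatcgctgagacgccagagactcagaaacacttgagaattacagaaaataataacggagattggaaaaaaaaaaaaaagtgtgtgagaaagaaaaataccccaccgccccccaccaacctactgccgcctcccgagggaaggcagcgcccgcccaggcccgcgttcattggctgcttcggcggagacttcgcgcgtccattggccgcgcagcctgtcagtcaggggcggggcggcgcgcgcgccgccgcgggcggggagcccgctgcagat
The Pklr region held the motif of CACGNG and CNCGTG with 5 bases between them, as CACGGGGCACTCCCGTG, at -170 to -154 from the start site. This motif stood in 15 of 32851 RefSeq promoter regions of the same length (0.0457%). The printed regions of Pdk1 and Foxo1 were richer in CpG, with 25 and 31 CpG dinucleotides against 8 in Pklr and a median of 7 over all regions, and their GC content was 66% and 61.3% against 55.7%. This contrast depends on the start site, since the downstream Pdk1 region held 2 CpG at a GC content of 40.3%. The upstream Pklr region held 3 CpG at 50.7%. All 9 genes matched the RefSeq table, with 15 start-site regions between them. A further 4 motifs were searched on both strands, namely GTAAACA (3.65% of all regions), CAAAACA (6.28%), CACGTG (7.15%) and TGACGTCA (1.79%), of which CACGTG can form either end of the first. Gckr held CAAAACA on the reverse strand at -83 to -77, and 1 of the Pfkfb3 regions held CACGTG at -53 to -48. None of the other regions of the 9 genes held any of the 5 motifs in these windows. A match is a run of letters and says nothing here about binding.

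In the liver, transcripts for the end of glycolysis and for a mitochondrial brake on pyruvate fell together while Foxo1 rose. At 30 nmol/kg BI 456906, Pklr fell to 60.1 ± 14.4 TPM from 291 ± 31.2 with vehicle (mean ± SD, n = 6 each), Pdk1 to 21.1 ± 3.20 from 49.04 ± 3.54 and Slc2a2 to 88.9 ± 14.7 from 150 ± 11.3. Foxo1 rose to 15.8 ± 1.74 TPM from 7.56 ± 0.944, and Pfkfb3 to 4.30 ± 1.06 from 2.43 ± 0.735. Of the 9 genes, 2 rose and 4 fell at this dose, where 58.8% of all tested genes passed the same threshold, so the count itself does not set the 9 apart. Pklr and Pdk1 also had a log2 fold change of at least 1 in size, as did 12.9% of all genes. The 6 treated and 6 vehicle libraries did not overlap in TPM for 4 of the 9, namely Pklr, Slc2a2, Pdk1 and Foxo1, against 29.4% of all genes.

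**Figure D1:**
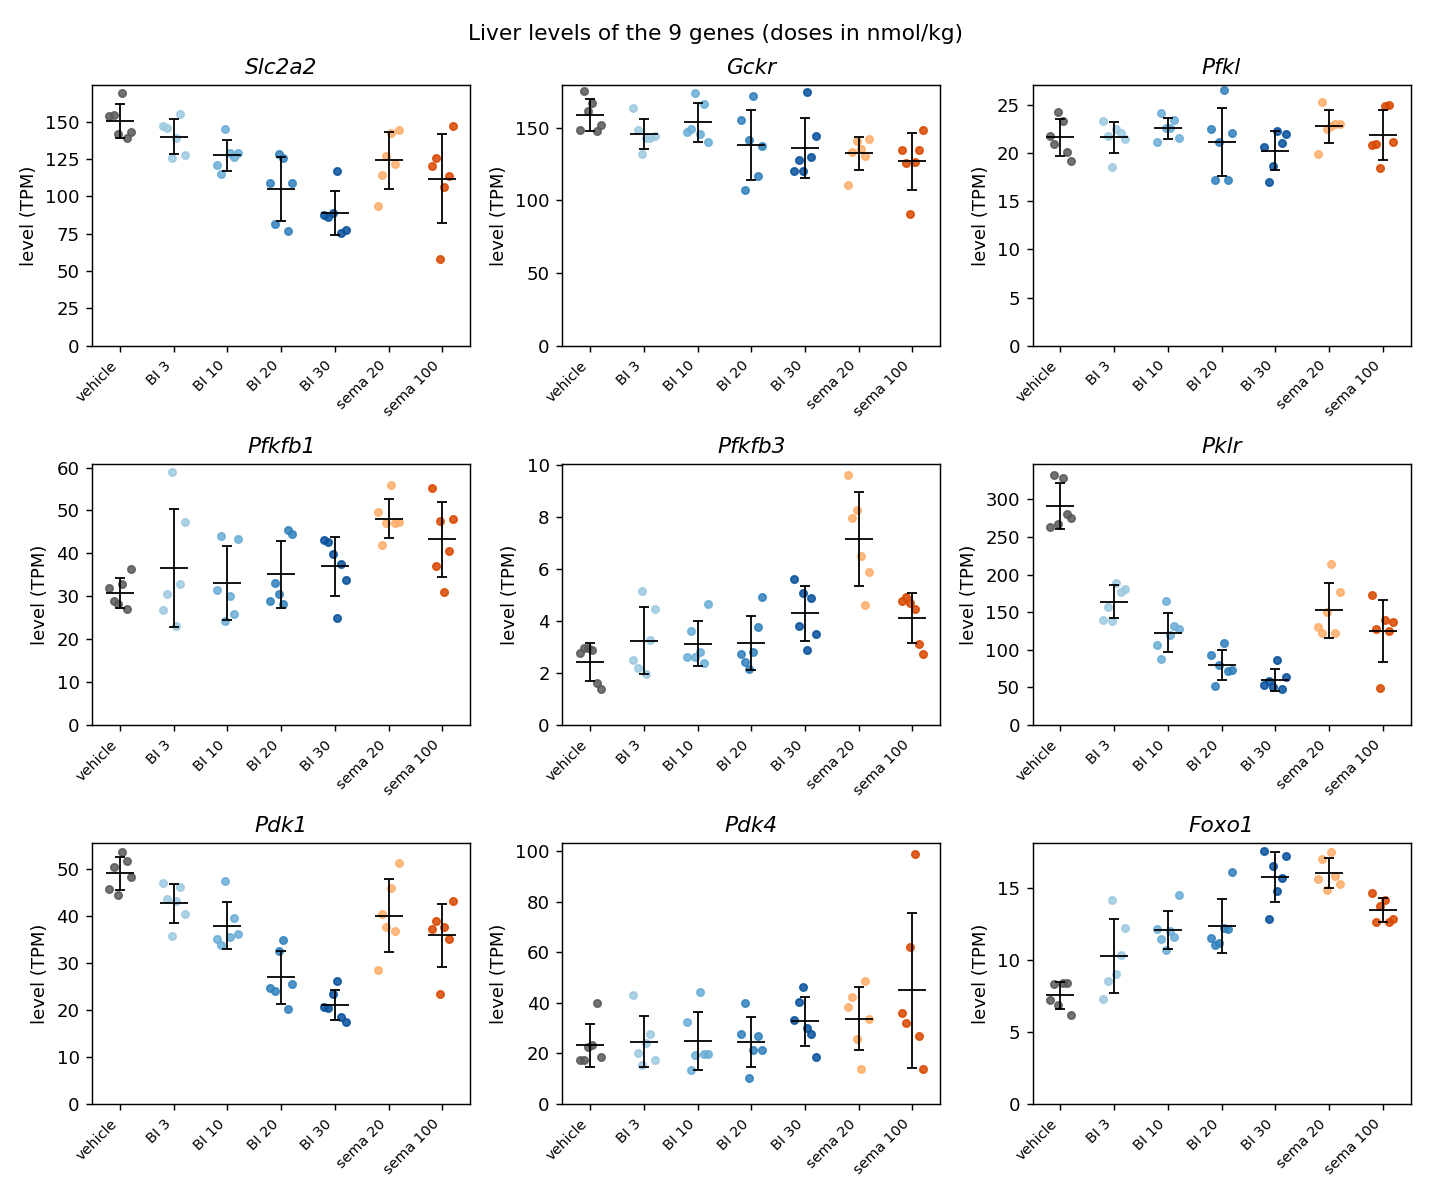
Level of each of the 9 genes in the 42 liver libraries, in TPM on a linear axis from 0, by treatment group with doses in nmol/kg. Points are libraries and the bars give mean and SD of 6. Pklr and Pdk1 step down with the dose of BI 456906 to means of 60.1 and 21.1 TPM, whereas Foxo1 steps up and Gckr and Pfkl keep nearly level.

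At the entry step, Slc2a2 (chromosome 3, 28697903 to 28731359, plus strand, GRCm38) encodes the high-capacity transporter through which hepatocytes exchange glucose in both directions. It ranged from 139 to 169 TPM with vehicle (median 149), from 76.9 to 128 at 20 nmol/kg BI 456906 (median 109) and from 75.7 to 117 at 30 nmol/kg (median 87.1). With semaglutide it ranged from 93.4 to 145 at 20 nmol/kg (median 124) and from 57.8 to 147 at 100 nmol/kg (median 117). The libraries at the 2 upper doses of BI 456906 all lay below the lowest vehicle library, whereas those of semaglutide overlapped with vehicle. Relative to vehicle, 20 nmol/kg BI 456906 gave a log2 fold change of -0.53 (SE 0.13, FDR 0.000787), 30 nmol/kg one of -0.70 (SE 0.13, FDR 1.33e-05) and 100 nmol/kg semaglutide one of -0.46 (SE 0.13, FDR 0.00338). It did not pass at 3 or 10 nmol/kg BI 456906 (-0.08 and -0.24) or at 20 nmol/kg semaglutide (-0.27, FDR 0.078).

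Gckr (chromosome 5, 31297443 to 31327314, plus strand), whose product binds glucokinase and holds it in the nucleus, moved little. Its group means ran from 127 TPM at 100 nmol/kg semaglutide to 159 with vehicle, and at 30 nmol/kg BI 456906 it stood at 136 ± 20.8 TPM with a log2 fold change of -0.18 (95% interval -0.38 to 0.01, FDR 0.0995). It passed the threshold at 100 nmol/kg semaglutide alone, with -0.25 (SE 0.10, FDR 0.0299). The call was lost in 5 of the 12 fits that left out 1 library, with the smallest change, -0.16 (FDR 0.163), without replicate 81 of that group, its lowest library at 90.5 TPM.

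At the phosphofructokinase step, Pfkl (chromosome 10, 77986947 to 78010083, minus strand) encodes the liver subunit of the rate-setting enzyme. Its group means stayed between 20.3 and 22.8 TPM. On scaled reads it was lower at 20 and 30 nmol/kg BI 456906, with log2 fold changes of -0.17 (FDR 0.0323) and -0.22 (FDR 0.0041). The call at 20 nmol/kg was lost in 7 of the 12 fits that left out 1 library (-0.16 to -0.11, FDR 0.052 to 0.156). On the log2(TPM + 1) scale the changes were -0.04 (FDR 0.719) and -0.09 (FDR 0.366), so neither call held there.

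The bifunctional enzymes behaved differently from Pfkl. Pfkfb3 (chromosome 2, 11471433 to 11554077, minus strand), the isoform with the strongest kinase over phosphatase activity, ranged from 1.37 to 2.97 TPM with vehicle (median 2.83) and from 2.88 to 5.64 at 30 nmol/kg BI 456906 (median 4.36). With semaglutide it ranged from 4.64 to 9.64 TPM at 20 nmol/kg (median 7.25) and from 2.72 to 4.93 at 100 nmol/kg (median 4.59). Every library at 20 nmol/kg semaglutide thus lay above every vehicle library, while the other 2 groups overlapped with vehicle at their lower end. On the log2 scale 20 nmol/kg semaglutide raised it by 1.45 (SE 0.22, FDR 2.26e-06), 100 nmol/kg by 0.72 (SE 0.23, FDR 0.0107) and 30 nmol/kg BI 456906 by 0.73 (SE 0.23, FDR 0.00753). At 3, 10 and 20 nmol/kg BI 456906 its means were 3.25, 3.13 and 3.14 TPM and it did not pass.

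Pfkfb1 (chromosome X, 150588229 to 150643878, plus strand), the main liver isoform, rose with semaglutide. It ranged from 26.96 to 36.4 TPM with vehicle (median 30.4), from 42.03 to 55.8 at 20 nmol/kg semaglutide (median 47.2) and from 31.1 to 55.3 at 100 nmol/kg (median 44.1). The log2 fold changes were 0.61 (SE 0.18, FDR 0.00638) and 0.45 (SE 0.18, FDR 0.0388), and the second did not pass once any of 8 single libraries was left out (0.38 to 0.46, FDR 0.0504 to 0.0955). At 30 nmol/kg BI 456906 it stood at 36.95 ± 6.78 TPM, with a log2 fold change of 0.26 (95% interval -0.11 to 0.63, FDR 0.22). The 6 libraries at the lower doses of BI 456906, replicates 51 and 54 at 3, 56 and 60 at 10, and 65 and 66 at 20 nmol/kg, were the 2 highest of their groups for both Pfkfb1 and Pfkfb3.

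Pklr (chromosome 3, 89136142 to 89146784, plus strand) encodes the enzyme of the last step of glycolysis and is a textbook target of glucose and ChREBP signalling. It ranged from 263 to 333 TPM with vehicle (median 278), from 138 to 189 at 3 nmol/kg BI 456906 (median 167) and from 87.8 to 165 at 10 nmol/kg (median 124). It then ranged from 51.5 to 110 TPM at 20 nmol/kg (median 76.3) and from 47.4 to 87.0 at 30 nmol/kg (median 56.2). With semaglutide it ranged from 122 to 214 TPM at 20 nmol/kg (median 141) and from 48.97 to 173 at 100 nmol/kg (median 132). All 36 treated libraries lay below the lowest vehicle library. Against vehicle the log2 fold change was -0.95 (SE 0.20, FDR 0.0033), -1.46, -2.17 and -2.50 (SE 0.20, FDR 1.08e-12) at 3, 10, 20 and 30 nmol/kg BI 456906, the last a 5.65-fold lower level. It was -1.12 (SE 0.20) and -1.47 (SE 0.20) at 20 and 100 nmol/kg semaglutide. Pklr was the one gene of the 9 that fell in all 6 treated groups, and Foxo1 the one that rose in all 6.

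Of the 2 PDK genes followed here, Pdk1 fell in every treated group but the lowest dose of BI 456906. Pdk4 passed the threshold in none with limma/voom, and the 2 genes were not tested against each other. Pdk1 (chromosome 2, 71873224 to 71903858, plus strand) ranged from 44.5 to 53.6 TPM with vehicle (median 49.3), from 20.1 to 34.9 at 20 nmol/kg BI 456906 (median 25.04) and from 17.4 to 26.1 at 30 nmol/kg (median 20.51). At 100 nmol/kg semaglutide it ranged from 23.3 to 43.1 TPM (median 37.4) and at 20 nmol/kg from 28.5 to 51.2 (median 38.99). The upper 2 doses of BI 456906 and the upper dose of semaglutide were thus clear of vehicle, and the lower dose of semaglutide was not. Log2 fold changes were -0.44 (FDR 0.00187), -0.97 (FDR 8.95e-09) and -1.22 (SE 0.11, FDR 2.07e-11) at 10, 20 and 30 nmol/kg BI 456906, and -0.21 (FDR 0.208) at 3 nmol/kg. With semaglutide they were -0.34 (FDR 0.0117) at 20 nmol/kg and -0.49 (FDR 0.000419) at 100 nmol/kg, and the former had an FDR of 0.0542 without replicate 73.

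Pdk4 (chromosome 6, 5483351 to 5496309, minus strand), the isoform that fasting and fatty acids are known to induce, varied widely within groups. It ranged from 17.3 to 39.9 TPM with vehicle (median 20.6), from 18.7 to 46.3 at 30 nmol/kg BI 456906 (median 31.7) and from 13.97 to 98.7 at 100 nmol/kg semaglutide (median 34.1). These ranges overlapped, and no treated group passed with limma/voom. The log2 fold change was 0.45 (95% interval -0.27 to 1.17, FDR 0.282) at 30 nmol/kg BI 456906 and 0.66 (95% interval -0.06 to 1.38, FDR 0.124) at 100 nmol/kg semaglutide. The latter was 0.88 (FDR 0.0392) with edgeR on the recovered reads, and 0.97 (FDR 0.0193) with limma/voom without replicate 84.

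Foxo1 (chromosome 3, 52268336 to 52353221, plus strand) ranged from 6.15 to 8.39 TPM with vehicle (median 7.78), from 7.32 to 14.2 at 3 nmol/kg BI 456906 (median 9.70) and from 12.9 to 17.5 at 30 nmol/kg (median 16.1). With semaglutide it ranged from 14.9 to 17.5 TPM at 20 nmol/kg (median 15.7) and from 12.7 to 14.6 at 100 nmol/kg (median 13.3). Only the lowest dose of BI 456906 overlapped with vehicle. At 10 and 20 nmol/kg its means were 12.1 ± 1.31 and 12.4 ± 1.90 TPM. The log2 fold changes were 0.36 (FDR 0.0309), 0.56, 0.60 and 0.98 (SE 0.12, FDR 4.26e-09) from 3 to 30 nmol/kg BI 456906, and 1.00 (SE 0.12) and 0.76 (SE 0.11) at 20 and 100 nmol/kg semaglutide. The call at 3 nmol/kg was lost without vehicle replicate 43, 45 or 48 or without replicate 51, 53 or 54 of that group (0.26 to 0.36, FDR 0.0662 to 0.149).

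**Figure D2:**
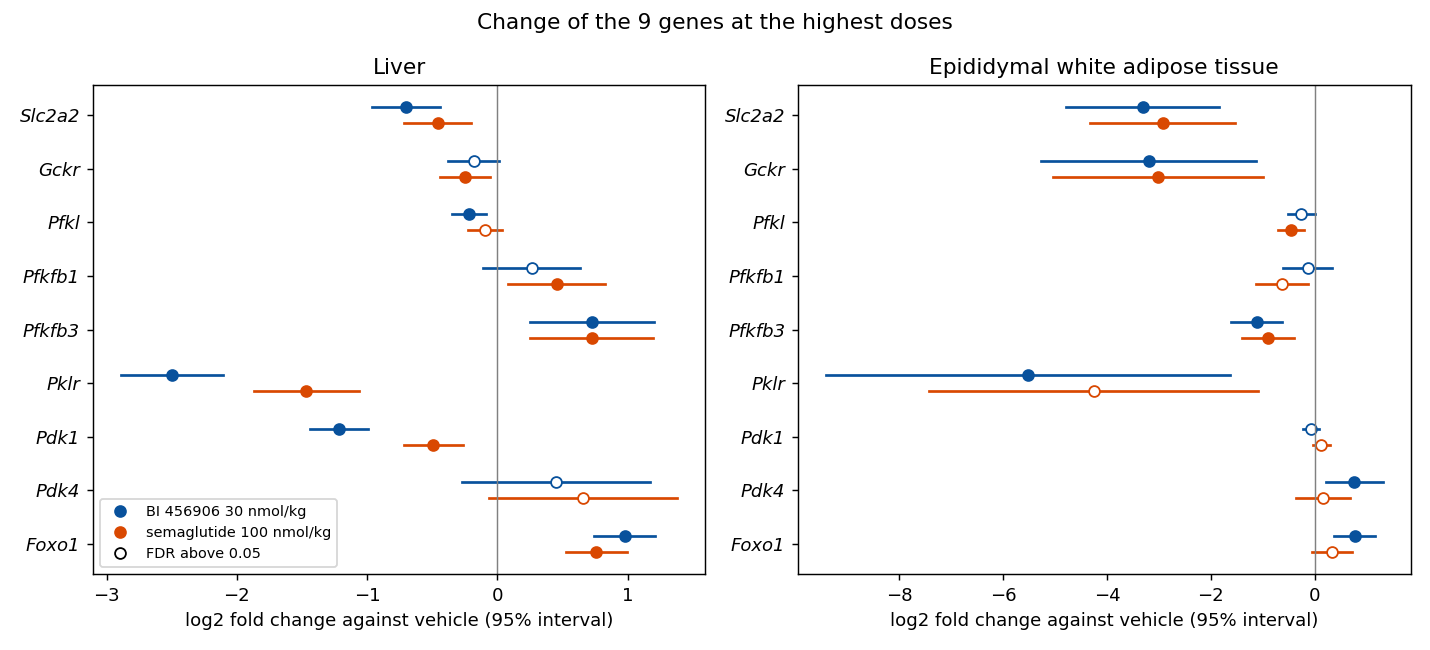
Log2 fold change against vehicle with its 95% interval for each of the 9 genes at the highest dose of each compound, in liver and in eWAT, with open points where the FDR is above 0.05. In liver Pklr lies at -2.50 with BI 456906 and -1.47 with semaglutide, and in eWAT the intervals of Pklr, Gckr and Slc2a2 are the widest.

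Counted over the 9 genes in liver, 1 rose and 1 fell at 3 nmol/kg BI 456906 (background 13.4% of all genes in either direction), 1 rose and 2 fell at 10 nmol/kg (37.5%) and 1 rose and 4 fell at 20 nmol/kg (45.9%). With semaglutide, 3 rose and 2 fell at 20 nmol/kg (46.5%), and 3 rose and 4 fell at 100 nmol/kg (48.2%). Libraries did not overlap with vehicle in TPM for 1, 2 and 4 of the 9 at 3, 10 and 20 nmol/kg BI 456906 (1.28%, 13.7% and 19.3% of all genes), and for 5 and 3 at 20 and 100 nmol/kg semaglutide (19.2% and 17.5%). Along the dose of BI 456906, with vehicle as dose 0, 2 genes rose and 4 fell, where 58.9% of all genes had a slope past the threshold. Per 10 nmol/kg the slope on the log2 scale was -0.76 (SE 0.05) for Pklr, -0.41 (SE 0.03) for Pdk1, -0.24 (SE 0.04) for Slc2a2 and -0.07 (SE 0.02) for Pfkl, against 0.27 (SE 0.03) for Foxo1 and 0.17 (SE 0.07) for Pfkfb3. The slope of Pfkfb3 had an FDR of 0.0239, which became 0.0645 without replicate 67 at 30 nmol/kg. When the 7 groups were ordered by mean TPM for each gene, 5 of the 54 pairs of neighbouring groups passed the threshold in the limma/voom fit, although only for Pklr did the TPM values of the 2 groups not overlap. These were vehicle above 3 nmol/kg BI 456906 for Pklr, 20 nmol/kg semaglutide above 30 nmol/kg BI 456906 for Pfkfb3, vehicle above 20 nmol/kg BI 456906 for Pfkl (means of 21.6 and 21.1 TPM), 100 nmol/kg semaglutide above 20 nmol/kg BI 456906 for Pdk1 (FDR 0.0134), and 3 nmol/kg BI 456906 above vehicle for Foxo1. Between 20 and 30 nmol/kg BI 456906, Foxo1 alone passed (0.38, SE 0.12, FDR 0.0433, background 5.86%).

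The 2 compounds were compared directly. They can also differ in potency at the GLP-1 receptor and in exposure at equal dose, which cannot be told apart here from glucagon receptor activity. The 9 genes were chosen with earlier results of these data known, so a count above its background does not set them apart. At the one shared dose of 20 nmol/kg, 3 of the 9 were lower with BI 456906, where 2.42% of all genes differed. They were Pklr (log2 difference -1.05, SE 0.19, FDR 0.000822), Pdk1 (-0.63, SE 0.11, FDR 0.000564) and Pfkfb3 (-1.22, SE 0.22, FDR 0.000607). The libraries were apart for Pklr (1.69% of all genes). Foxo1 was close to the threshold at -0.40 (FDR 0.0519), and passed without replicate 66 of BI 456906 (-0.48, FDR 0.0141). At the highest dose of each compound, 30 against 100 nmol/kg, Pklr (-1.03, SE 0.19, FDR 0.000329) and Pdk1 (-0.72, SE 0.11, FDR 2.09e-05) were lower with BI 456906, against a background of 9.75%. The libraries of the 2 groups overlapped for all 9 genes, where 2.94% of all genes did not overlap, and for Pklr and Pdk1 the overlap was 1 library, since replicate 81 at 100 nmol/kg semaglutide, with 48.97 TPM of Pklr and 23.3 of Pdk1, lay among those of BI 456906. Without that replicate Slc2a2 passed too (-0.41, FDR 0.0059, against -0.24 and FDR 0.239 with it). For Pfkfb3 and Foxo1 the differences at these doses were 0.01 (95% interval -0.43 to 0.44) and 0.22 (-0.02 to 0.45). Against 20 nmol/kg semaglutide, 30 nmol/kg BI 456906 had lower Pklr (-1.38), Pdk1 (-0.87), Pfkfb3 (-0.72, FDR 0.0153) and Slc2a2 (-0.43, FDR 0.022), with a background of 13.6%. The call on Slc2a2 was lost in 4 of the 12 fits that left out 1 library (-0.39 to -0.36, FDR 0.0536 to 0.065). These comparisons share their groups with those against vehicle.

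Levels of the 9 genes were also compared from mouse to mouse within groups. After the group mean of log2(TPM + 1) was taken off, 13 of 36 pairs of the 9 genes correlated across the 42 liver libraries at a Benjamini-Hochberg adjusted permutation p of at most 0.05 for both Pearson's r and Spearman's rho, 10 with a positive and 3 with a negative sign. Slc2a2 and Pdk1 had the highest r, at 0.89 (rho 0.82, adjusted permutation p = 0.00012 for both), and r was 0.85 without the 2 libraries farthest from the median. Gckr and Slc2a2 had an r of 0.81 (rho 0.70, and 0.72 without the 2 farthest libraries, adjusted permutation p = 0.00012 for both). A second set was Pfkfb3 with Foxo1 (r 0.63, rho 0.56, adjusted permutation p = 0.00062 and 0.00396) and with Pfkfb1 (r 0.58, rho 0.51, adjusted permutation p = 0.00168 and 0.00569), with r of 0.53 and 0.48 without the 2 farthest libraries. Pfkfb1 ran against Gckr, Pfkl and Pdk1, with r of -0.45, -0.50 and -0.42. Pfkl did not pass both tests with Slc2a2, Pklr or Pdk1. These values share library, depth and the composition of each liver, and the share of correlated pairs among all genes was not computed, so the count of pairs is a description of the 9 genes alone.

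Over all 42 liver libraries the gene most like Pklr among those tested was Pdk1, with a Pearson r of 0.93 on log2 values (0.75 within groups), followed by Sugct and Tkt at 0.93 each. Pdk1 was next most like Aqp8 and Ces1g (0.92 each). Slc2a2 was most like Car5a (0.93), Rdh10 and Akr1d1 (0.91 each), and Foxo1 most like Ell2 (0.95), Sdc4 and Tle1 (0.94 each). Pfkfb3 was most like Tmc7 (0.87), Il1r1 and Lpin1 (0.81 each), while for Pfkl the highest r was 0.75, with Gm26660, followed by Mmrn2 and Gm45051 at 0.74 each. These are descriptions over libraries that share treatment groups.

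The other genes of the pathway were taken from 8 lists, 70 genes in all, of which 68 were tested in liver. At 30 nmol/kg BI 456906, 17 rose and 28 fell where 58.8% of all tested genes passed, and at 100 nmol/kg semaglutide 14 rose and 29 fell where 48.2% passed. These shares are the background for each list below. The lists differed in direction. Among the shared glycolytic enzymes 2 rose and 12 fell of 15 with BI 456906, and 1 rose and 10 fell with semaglutide, with median log2 fold changes of -0.41 and -0.37 against -0.03 and -0.02 over all genes tested. Aldoc, an aldolase, fell to 6.92 ± 3.41 TPM from 16.1 ± 4.51 with BI 456906, and Eno2, an enolase, had a log2 fold change of -1.20 at levels under 1 TPM. Ldha, lactate dehydrogenase A, went the other way and rose to 1285 ± 143 TPM from 799 ± 35.3 (0.60, SE 0.10, FDR 1.86e-06).

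Of 6 hexokinase and fructose-entry genes, 4 fell with BI 456906 and 5 with semaglutide. Khk, ketohexokinase, stood at 440 ± 47.6 TPM against 690 ± 68.6 with vehicle (-0.76, FDR 3.38e-06), and Hk2 and Tkfc changed by -0.78 and -0.33. Hk2 was low, at 0.868 ± 0.276 TPM against 1.64 ± 0.662, and the libraries of Hk2 and of Tkfc overlapped with vehicle. On the log2(TPM + 1) scale these counts were 2 of 6 with BI 456906 and 1 with semaglutide, and the glycolytic enzymes that fell were 9 with either compound. On that scale 8507 of all 15964 genes passed with BI 456906 and 6615 with semaglutide, in either direction. Of 7 further glucose transporter genes, 1 rose and 3 fell with BI 456906. The fructose transporter Slc2a5 fell to 1.51 ± 0.622 TPM from 5.15 ± 1.34 and was lower than with 100 nmol/kg semaglutide (-1.29, FDR 0.00311), while Slc2a9, a urate transporter, fell by 0.83 and Slc2a1 rose by 0.41 on the log2 scale. With semaglutide 1 rose and 4 fell, among them Slc2a4 at -1.01, which was under 1 TPM in every liver library of the 3 groups.

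Among 14 genes of pyruvate entry and the pyruvate dehydrogenase complex, 3 rose and 5 fell with BI 456906 (background 58.8%), and 2 rose and 6 fell with semaglutide (48.2%), so the count with BI 456906 was close to that of all genes. Pdpr, the regulatory subunit of the phosphatase that reactivates pyruvate dehydrogenase, rose to 12.5 ± 1.56 TPM from 2.25 ± 1.83 with BI 456906 (2.44, SE 0.31, FDR 2.42e-08) and stood at 11.3 ± 1.78 with semaglutide. Pdp2, a catalytic subunit of that phosphatase, rose by 0.70 and the kinase Pdk2 fell by 0.78 on the log2 scale with BI 456906. In the gluconeogenesis list 3 rose and 1 fell of 8 with BI 456906 (background 58.8%) and 2 rose and 2 fell with semaglutide (48.2%), no more than among all genes with BI 456906 and close to them with semaglutide. Pck1, phosphoenolpyruvate carboxykinase, stood at 3046 ± 328 TPM against 1056 ± 411 with vehicle (1.52, FDR 1.04e-09) and the coactivator Ppargc1a at 6.98 ± 0.991 against 1.53 ± 0.276 (1.92, FDR 2.46e-13), while Pcx, pyruvate carboxylase, fell by 0.67.

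The list of FOXO family and FOXO-linked insulin response genes had 6 of its 8 tested genes higher with either compound (background in either direction 58.8% and 48.2%), with median log2 fold changes of 0.67 and 0.61. Igfbp1, a secreted binding protein repressed by insulin, stood at 589 ± 143 TPM against 132 ± 45.2 with vehicle (2.17, FDR 3.69e-07), and Irs2 and Klf15 rose by 1.19 and 0.97. Of 6 carbohydrate-responsive transcription genes, 1 rose and 3 fell with BI 456906. Thrsp, a lipogenic target of the same signals as Pklr, fell to 51.9 ± 15.5 TPM from 396 ± 130 (-3.00, SE 0.42), and Srebf1 fell by 1.11. Mlxipl, which encodes ChREBP, fell at 30 nmol/kg BI 456906 (-0.42, FDR 0.00241) and stood at 0.11 (FDR 0.484) with 100 nmol/kg semaglutide, and the 2 groups differed (-0.53, FDR 0.00303). With semaglutide, 1 gene of this list rose and 2 fell.

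The makeup of the 2 isoform families was then worked out from the TPM of each library, a description chosen after the values were seen. The 4 PDK genes summed to 170 ± 10.8 TPM with vehicle, 115 ± 11.9 at 30 nmol/kg BI 456906 and 152 ± 25.2 at 100 nmol/kg semaglutide. The share of Pdk1 was 28.9% with vehicle and 18.3% at 30 nmol/kg BI 456906, that of Pdk4 was 13.5% and 28.2%, and Pdk2 held 57.4% and 53.1%. With 100 nmol/kg semaglutide the share of Pdk4 was 27.99% and ran from 9.82% to 49.3% between libraries. The 4 PFKFB genes summed to 37.9 ± 3.20 TPM with vehicle, 65.97 ± 8.97 at 30 nmol/kg BI 456906 and 71.5 ± 6.72 at 20 nmol/kg semaglutide.

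Pfkfb1 made up 81.2% of the PFKFB sum with vehicle and 55.8% at 30 nmol/kg BI 456906, where Pfkfb2 went from 9.93% to 36.8%. Pfkfb2, an isoform activated by insulin signalling in heart and also present in liver, rose from 3.74 ± 0.812 to 24.1 ± 3.62 TPM with BI 456906 (2.32, SE 0.24, FDR 2.38e-10). It stood at 14.3 ± 3.15 with 100 nmol/kg semaglutide and was higher with BI 456906 (0.72, FDR 0.0144). Pfkfb3 held 6.41% with vehicle, 6.47% at 30 nmol/kg BI 456906 and 9.94% at 20 nmol/kg semaglutide.

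**Figure D3:**
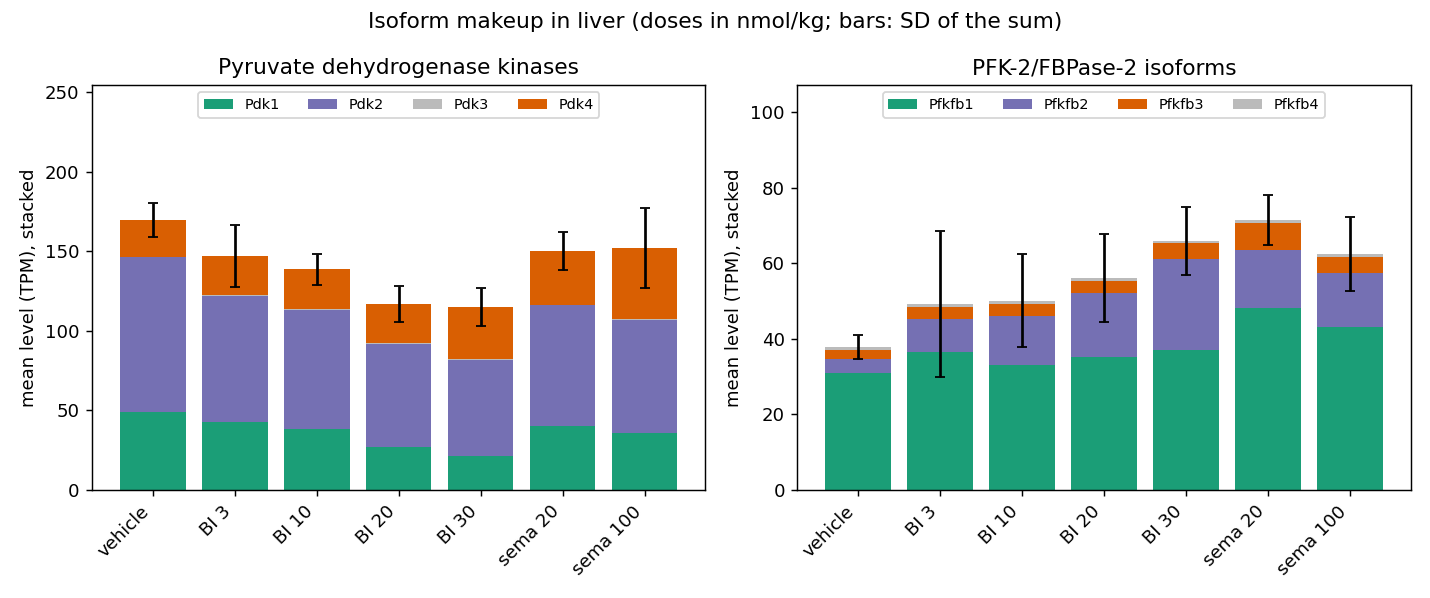
Mean level in TPM of the PDK genes and of the PFKFB genes in liver, stacked by isoform for each of the 7 groups, with bars for the SD of the family sum over 6 libraries. The PDK sum is lowest at 30 nmol/kg BI 456906 (115 TPM), and the growth of the PFKFB sum at that dose is mostly Pfkfb2.

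In eWAT the same genes had another profile of levels. With vehicle Pfkfb3 stood at 117 ± 42.4 TPM there against 2.43 in liver and Pdk4 at 109 ± 36.8 against 23.2, whereas Gckr, Pklr and Slc2a2 stood at 5.43, 6.87 and 4.54 TPM, or 3.42%, 2.36% and 3.02% of their liver means. These 3 genes followed the liver transcripts found in the fat libraries. The 10 hepatocyte markers summed to 37.7 to 8480 TPM in eWAT with vehicle (median 2435), and 5 of 6 vehicle libraries exceeded 1000 TPM against 2, 2, 0 and 1 of 6 from 3 to 30 nmol/kg BI 456906 and 0 and 1 with semaglutide. In the 5 libraries with the highest sums (2615 to 8480 TPM) Gckr ran from 3.08 to 14.95 TPM, Pklr from 2.26 to 21.9 and Slc2a2 from 3.57 to 10.7. In the 5 with the lowest sums (18.6 to 43.6 TPM) they ran from 0.05 to 0.26, 0 to 0.04 and 0.15 to 0.55.

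**Figure D4:**
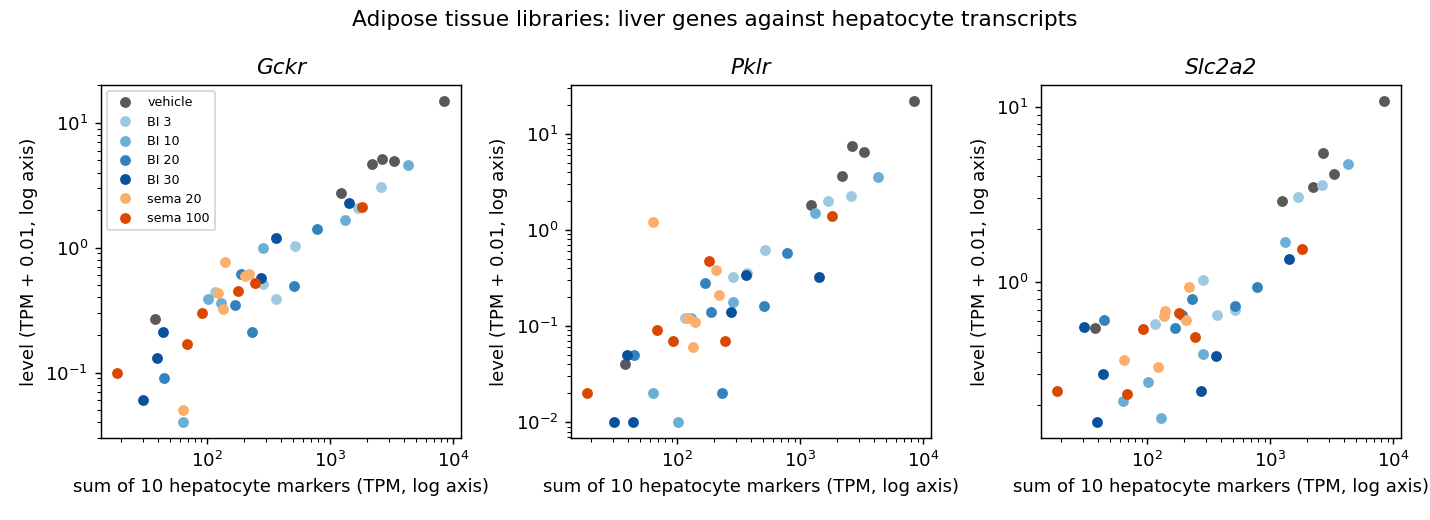
Level of Gckr, Pklr and Slc2a2 in the 42 eWAT libraries against the sum of 10 hepatocyte markers, both in TPM on log axes, with 0.01 TPM added to the level and points coloured by group. Libraries with larger marker sums have more of all 3 genes, and 5 of the 6 vehicle libraries lie above 1000 TPM.

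All 3 genes fell at 30 nmol/kg BI 456906 in eWAT, where Pklr was down to between 0 and 30 reads per library, with log2 fold changes of -3.19 (SE 1.02, FDR 0.0216) for Gckr, -5.52 (SE 1.92, FDR 0.0335) for Pklr and -3.31 (SE 0.73, FDR 0.00127) for Slc2a2. With the marker sum as a covariate, an alternative chosen after the data were seen, they were -0.60 (FDR 0.0443), -2.32 (FDR 0.00304) and -1.51 (FDR 0.00061). Without the libraries over 3000 TPM, likewise chosen afterwards, they were -2.34 (FDR 0.082), -4.33 (FDR 0.06) and -2.69 (FDR 0.00347). Leaving out 1 library lost the call in 3 of 12 fits for Gckr and 6 of 12 for Pklr. At 30 nmol/kg BI 456906, Gckr, Pklr and Slc2a2 stood at 0.535%, 0.225% and 0.551% of their liver means. The 10 hepatocyte markers stood at 2.40% to 3.11% of theirs with vehicle and at 0.149% to 0.42% at this dose. Vehicle replicate 1, with a marker sum of 37.7 TPM, held 0.26 TPM of Gckr, 0.03 of Pklr and 0.54 of Slc2a2. Beyond these values, the part of the liver transcripts in the result was not tested.

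The genes with adipose levels of their own showed smaller changes. Pfkfb3 ranged from 73.9 to 192 TPM with vehicle (median 106), from 37.5 to 59.4 at 30 nmol/kg BI 456906 (median 55.2) and from 38.6 to 113 at 100 nmol/kg semaglutide (median 50.5). All 6 libraries at 30 nmol/kg BI 456906 lay below the vehicle libraries, and those of semaglutide overlapped with vehicle. The libraries at 30 nmol/kg BI 456906 were apart from vehicle, in either direction, for 1 of the 9 genes and for 6.31% of all genes in eWAT. On the log2 scale the change was -1.12 (SE 0.25, FDR 0.00129) with 30 nmol/kg BI 456906, and -0.92 (FDR 0.0197) and -0.90 (FDR 0.0129) with the lower and the higher dose of semaglutide. With the marker sum as covariate it was -0.97 (FDR 0.00973) with BI 456906, and the calls with semaglutide were lost (-0.78, FDR 0.113 and -0.75, FDR 0.0883). The call at 20 nmol/kg semaglutide was also lost in 4 of the 12 fits that left out 1 library, and that at 100 nmol/kg without vehicle replicate 5 (-0.73, FDR 0.0548). Pfkl fell with semaglutide at both doses (-0.47 and -0.46, FDR 0.0154 and 0.0104) and did not pass with BI 456906 (-0.25, FDR 0.132 at 30 nmol/kg). With the marker sum as covariate these were -0.46 (FDR 0.0653) and -0.44 (FDR 0.0461), in fits of only 2 groups -0.46 (FDR 0.052) and -0.47 (FDR 0.0501), and the call at 20 nmol/kg was lost in 4 of the 12 fits that left out 1 library.

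Foxo1 rose in eWAT from 14.2 ± 1.99 to 24.9 ± 5.06 TPM at 30 nmol/kg BI 456906 (0.77, SE 0.19, FDR 0.0041). Pdk4 rose from 109 ± 36.8 to 181 ± 40.4 TPM (0.76, SE 0.27, FDR 0.0367), a call that was lost with the marker sum as covariate (0.66, FDR 0.109), without the libraries over 3000 TPM (0.59, FDR 0.184) and in 7 of the 12 fits that left out 1 library. Pdk1 stood between 13.8 and 18.7 TPM in all 7 eWAT groups and passed in none of them against vehicle with limma/voom, the lowest FDR being 0.0624 at 20 nmol/kg BI 456906. Over the 9 genes in eWAT, 2 rose and 4 fell at 30 nmol/kg BI 456906 (background 23.9%), 1 fell at 20 nmol/kg (4.27%), 3 fell at 20 nmol/kg semaglutide (6.33%) and 4 fell at 100 nmol/kg (14.9%). The 4 at 30 nmol/kg BI 456906 were Pfkfb3 and the 3 genes that followed the liver transcripts, Gckr, Pklr and Slc2a2. The 3 genes at 20 nmol/kg semaglutide were Pfkfb3, Pfkl and Slc2a2, and Gckr was the fourth at 100 nmol/kg, where it passed in only 2 of the 12 fits that left out 1 library. At 3 and 10 nmol/kg BI 456906 limma/voom, edgeR and DESeq2 each called 0 of the 9 (backgrounds with limma/voom 0.00539% and 0.513%), with 4 and 5 at an unadjusted p of at most 0.05 in limma/voom. Between the highest doses of the compounds 0 of the 9 differed in eWAT with limma/voom, edgeR or DESeq2 (background with limma/voom 0.0108%), and 3 had an unadjusted p of at most 0.05.

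The change against vehicle was then compared between liver and eWAT in 1 fit of all 84 libraries. The labels do not say whether liver and eWAT libraries came from the same mice, and the fit treated them as independent. At 30 nmol/kg BI 456906 4 of the 9 genes changed differently in the tissues, where 38.4% of all 19249 genes did. Pdk1 fell in liver and stood at -0.07 (FDR 0.556) in eWAT (liver minus eWAT -1.27, SE 0.14, FDR 5.39e-11), and Pfkfb3 rose in liver and fell in eWAT (1.71, SE 0.36, FDR 9e-05). Gckr and Slc2a2 had differences of 2.87 and 2.48, and both fell in eWAT along with the hepatocyte markers. At 100 nmol/kg semaglutide 5 differed (background 27.5%), namely Pdk1 (-0.69), Pfkfb3 (1.54), Pfkfb1 (1.01, FDR 0.00996), Gckr (2.65) and Slc2a2 (2.37). For Foxo1, which rose in both tissues at 30 nmol/kg BI 456906, the difference was 0.08 (95% interval -0.37 to 0.54) with BI 456906 and 0.36 (-0.10 to 0.81) with semaglutide.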

How the data were processed

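Libraries were grouped by the sample titles, which give tissue, compound, dose and a library number but no mouse number. Each library of a tissue was taken as a separate mouse. The titles name the comparator by a code, read here as semaglutide, which the study gave at the same doses. The authors deposited 2 tables per tissue on GRCm38 (mm10): read counts divided by 1 factor per library, a scaled signal from which whole reads were recovered (100% of values whole within 0.02), and TPM. The submitters' processing notes name STAR 2.5.2b, RSEM 1.3.0, featureCounts 1.5.1 and FastQC 0.11.5. The library kit differs between the labels and the study's methods, and strand-specific counting is not given in the sources used here.

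The deposited scaled counts were fitted with limma 3.58.1 voom (R 4.3.3, edgeR 4.0.16 TMM and filterByExpr), with 1 fit of 7 groups per tissue. The tissue difference came from 1 voom fit of recovered reads. FDR was Benjamini-Hochberg over all genes tested. The alternatives were edgeR and DESeq2 1.42.0 on recovered reads, log2(TPM + 1) and log2(TPM + 0.1), other scalings and filters, sample quality weights, fits of only 2 groups and leaving out each library. The scripts were tested on simulated data with known changes.

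The genes and lists were chosen with earlier results of these data known. Named were the 9 genes, from each list at most the 3 genes with the largest changes past the threshold at 30 nmol/kg BI 456906 and 1 for 100 nmol/kg semaglutide, and the 3 genes most like each of the 9 that passed at 30 nmol/kg. Intervals and FDR rest on the spread between mice within groups, estimated jointly over all groups of a fit and not from the compared groups alone.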

Additional observations from a re-analysis of the deposited data

Results flagged for a closer look

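Among 126 groups of 6 libraries (9 genes, 7 groups, 2 tissues), 16 held a library far from the rest by Dixon's ratio, a test by which chance flags about 1 in 20 groups. In liver these were Gckr in replicate 73 at 20 nmol/kg semaglutide (110.91 TPM), Slc2a2 in replicate 70 at 30 nmol/kg BI 456906 (116.67 TPM), Pdk4 in vehicle replicate 47 (39.87 TPM) and Foxo1 in replicate 66 at 20 nmol/kg BI 456906 (16.1 TPM). In eWAT vehicle replicate 2 stood out for Gckr (14.95 TPM) and Pklr (21.91 TPM), replicate 15 at 10 nmol/kg BI 456906 for Gckr (4.56 TPM) and Slc2a2 (4.7 TPM), and replicate 42 at 100 nmol/kg semaglutide for Gckr (2.11 TPM), Pklr (1.37 TPM) and Slc2a2 (1.54 TPM). Also in eWAT, replicate 31 at 20 nmol/kg semaglutide was high for Pklr (1.2 TPM) and Pfkfb3 (87.94 TPM), replicate 27 at 30 nmol/kg BI 456906 for Slc2a2 (1.35 TPM) and replicate 20 at 20 nmol/kg BI 456906 for Pfkfb3 (147.07 TPM), while replicate 29 at 30 nmol/kg BI 456906 was low for Pfkfb1 (11.49 TPM).

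The log2 change against vehicle differed between the tissues by the test of the difference itself, given as liver minus eWAT. At 30 nmol/kg BI 456906 this held for Gckr (2.87), Pfkfb3 (1.71), Slc2a2 (2.48) and Pdk1 (-1.27). At 100 nmol/kg semaglutide it held for Gckr (2.65), Pfkfb1 (1.01), Pfkfb3 (1.54), Slc2a2 (2.37) and Pdk1 (-0.69). In both treated groups Gckr and Slc2a2 fell in eWAT along with the hepatocyte markers. The part of liver transcripts in their differences was not tested.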

How the results depend on the processing

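No direction of a result past the threshold was reversed by any alternative. Of the counts, 226 stayed within 1.5 times the main count over the alternatives other than leaving out a library and 27 did not, and among single-gene results 1854 kept their side of the threshold, 75 passed it anew and 41 lost it. In liver, the count of the 9 genes past the threshold at 3 nmol/kg BI 456906 was 2, and 1 without a filter or with only 2 groups fitted; at 20 nmol/kg BI 456906 against 20 nmol/kg semaglutide it was 3, and 5 with sample quality weights. Neighbouring groups, ordered by the same libraries that were tested, differed in 5 pairs, and in 3 without a filter or on either TPM scale. In eWAT, sample quality weights gave 5 genes at 10 nmol/kg and 5 at 20 nmol/kg BI 456906, 7 at 20 nmol/kg semaglutide, and 4 between the highest doses. With these weights 7299 of 18536 genes passed at 30 nmol/kg BI 456906 in eWAT, against 4432 in the main fit. Shares over all genes are not given for the other counts of this section, so the counts do not set the 9 genes apart. At 20 nmol/kg BI 456906 (main count 1) edgeR gave 4, DESeq2 5 and both TPM scales 3, and at 20 nmol/kg semaglutide (main count 3) each of these 4 gave 5. Fits of only 2 groups gave 0 at 20 nmol/kg BI 456906, 1 at 20 nmol/kg and 0 at 100 nmol/kg semaglutide. Without the eWAT libraries of high liver transcripts the counts were 2 at 10, 0 at 20 and 3 at 30 nmol/kg BI 456906, and with the marker sum as covariate 2 at 20 nmol/kg BI 456906 and 0 and 2 at 20 and 100 nmol/kg semaglutide. Both were chosen after seeing the data. The cause of these shifts was not tested.

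Leaving out each library in turn gave these ranges in liver: 1 to 2 at 3, 3 to 3 at 10, 4 to 5 at 20 and 6 to 7 at 30 nmol/kg BI 456906, 4 to 5 and 5 to 7 with semaglutide, 2 to 3, 3 to 5 and 3 to 4 between the compounds, 5 to 7 for the slope, and 41 to 46 and 37 to 43 genes of the pathway lists. In eWAT they were 0 to 2, 0 to 3, 0 to 4 and 3 to 6 with BI 456906, 1 to 5 and 2 to 5 with semaglutide, and 0 to 0 between the highest doses. The eWAT counts rested on single libraries: without vehicle replicate 1 they were 2, 3, 4 and, at 20 nmol/kg semaglutide, 5, and without replicate 25, 26 or 30 the count at 30 nmol/kg BI 456906 was 3. Without vehicle replicate 5 the counts with semaglutide were 1 and 2, and without vehicle replicate 6 or replicate 32 or 36 the count at 20 nmol/kg semaglutide was 1. It was 2 at 10 nmol/kg without replicate 13 or 15, and 0 at 20 nmol/kg BI 456906 without replicate 23. Leaving out libraries was not run for the tissue difference or the neighbouring groups. No paired analysis was possible because the replicate numbers are unique to each library and no group shares one with another, and the labels tie no liver library to an eWAT library. Depth limits the low genes: in eWAT Pklr held 0 to 30 reads per library at 30 nmol/kg BI 456906.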
